A study of Mus musculus with 59 samples.

Results

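The genes described here encode the voltage-gated sodium channels, the voltage-gated calcium channels and the hyperpolarization-activated cyclic nucleotide-gated (HCN) channels, with their auxiliary subunits. They were taken from a table of 24346 gene symbols by name (symbols of the Scn, Cacn and Hcn families) and by a mean of at least 0.5 FPKM over all 59 libraries. FPKM is the number of sequenced fragments scaled to transcript length and library size, so levels of different genes can be compared per length. Of 43 symbols that fit by name, 36 reached the mean and 7 did not. The genes comprise 4 HCN genes, 6 sodium channel alpha and 4 beta subunits, and 8 alpha1, 4 alpha2delta, 4 beta and 6 gamma subunits of calcium channels. Scn2a, a main sodium channel alpha gene of brain, stands in the table under its older symbol Scn2a1 and falls outside the naming rule. It was followed as a partner gene.

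Sodium channel alpha subunits form the pore that carries the rising phase of the action potential, and beta subunits set its gating and anchor it in the membrane. Calcium channel alpha1 subunits form the pores through which spikes admit calcium for transmitter release and pacemaking, beta and alpha2delta subunits bring them to the surface, and most of the gamma subunits described here are better known as partners of AMPA-type glutamate receptors. HCN channels open on hyperpolarization and carry a depolarizing current that is prominent in dopamine neurons of the midbrain, where L-type calcium channels and sodium channels also take part in spontaneous firing.

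The tissue was the ventral tegmental area (VTA) of male mice that had cocaine or saline. Its dopamine neurons reach the striatum and the cortex. Acute and chronic groups had injections in the home cage, with 5 cocaine and 6 saline libraries in the acute paradigm and 6 of each in the chronic one. Conditioning groups had 6 cocaine and 6 saline libraries, and intravenous self-administration had 15 cocaine and 9 saline libraries. The labels do not give the strain, age, dose, number of doses, kind of conditioning or time of tissue collection. No allele or transgene is named for any group. The labels do not state that samples were separate animals either, so a p-value measures no more than how these samples scatter, which can be technical scatter. The table numbers the libraries of a group from 0, and single libraries are named here by that number.

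Sums of FPKM ran from 398580 to 457510 per library, and between 5689 and 7925 symbols per library were listed at 0. Whole reads could not be recovered from the values, so the depth behind each value is unknown. The correlation of a library with the mean of the others of its group, over all tested genes on the log2 scale, was lowest at 0.977 for the self-administration cocaine library numbered 6 and next at 0.980 for the acute cocaine library numbered 4. Results that rest on these libraries are also given without them. There were 0 identical pairs. The tissue label was checked on Th, the rate-limiting enzyme of dopamine synthesis, at 318 ± 148 FPKM, and Slc6a3, the dopamine transporter, at 303 ± 141 (SD, n = 59 each). Both were present in every library, with Th between 124 and 691 FPKM. Pitx3, a transcription factor of the same neurons, was at 0.714 ± 0.341 FPKM in self-administration saline (SD, n = 9). In acute saline Pitx3 was at 10.9 ± 3.05 (SD, n = 6). Th was at 259 ± 119 and 377 ± 95.3 in the same groups, and Slc6a3 at 318 ± 154 and 342 ± 80.9. The cause of the Pitx3 difference was not tested. In bulk tissue, fewer cells of a type and less RNA per cell cannot be told apart.

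Upstream sequences are given for the genes whose levels followed the dopamine or the myelin markers of a library, the pattern described further on. RefSeq start regions on GRCm38.p6 were at hand for 25 of the 36 genes. The first pair followed the dopamine markers upward (Scn9a) and downward (Cacna1i), and the second pair followed the myelin markers upward (Hcn2 and Scn4b). Each line holds the 250 bases before the start annotated in RefSeq, 5′ to 3′ on the gene's strand, and capitals, found in Cacna1i alone of the 4, mark CGTCA, the reverse complement of the CRE half-site TGACG. In the GENCODE M21 annotation used for gene coordinates, Scn4b begins at chr9:45138395, so most of its line lies inside the gene.
Scn9a (chr2:66634963-66635212, minus strand): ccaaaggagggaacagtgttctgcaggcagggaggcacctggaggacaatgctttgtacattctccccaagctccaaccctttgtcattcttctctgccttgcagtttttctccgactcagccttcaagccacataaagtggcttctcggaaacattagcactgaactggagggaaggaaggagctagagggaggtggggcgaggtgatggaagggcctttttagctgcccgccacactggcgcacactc
Cacna1i (chr15:80286988-80287237, plus strand): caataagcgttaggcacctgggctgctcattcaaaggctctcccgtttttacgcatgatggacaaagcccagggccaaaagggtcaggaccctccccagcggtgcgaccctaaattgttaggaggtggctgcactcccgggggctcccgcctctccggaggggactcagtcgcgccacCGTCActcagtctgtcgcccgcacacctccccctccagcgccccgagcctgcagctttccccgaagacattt
Hcn2 (chr10:79716384-79716633, plus strand): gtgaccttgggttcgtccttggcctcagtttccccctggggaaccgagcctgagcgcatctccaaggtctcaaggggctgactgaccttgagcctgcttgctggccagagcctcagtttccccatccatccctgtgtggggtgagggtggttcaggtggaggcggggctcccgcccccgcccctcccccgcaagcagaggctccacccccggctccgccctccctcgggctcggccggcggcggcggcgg
Scn4b (chr9:45138374-45138623, plus strand): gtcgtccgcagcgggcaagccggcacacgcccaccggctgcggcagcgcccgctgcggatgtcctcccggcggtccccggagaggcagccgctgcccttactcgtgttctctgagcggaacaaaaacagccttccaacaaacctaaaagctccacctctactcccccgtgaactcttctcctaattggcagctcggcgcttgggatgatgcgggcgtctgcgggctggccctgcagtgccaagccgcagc
The half-site was found on either strand in 17.8% of 32851 upstream regions of that length, and in 5 of the 35 regions of these genes, those of Cacna1b, Cacna1c, Cacna1i, Cacna2d1 and Cacnb2. The full CRE, TGACGTCA, was in 1.55% of all regions and in none of the 35. AAAGGTCA, the NBRE bound by orphan nuclear receptors such as Nr4a2, was in 1.34% of all regions and in 1 of the 35, at Scn8a. TATAAA was in 12.4% of all and in 1, at Cacna1d. The full CRE contains the half-site. The region of Hcn2 was 70.4% G and C, that of Scn4b 66.0%, that of Scn9a 54.4% and that of Cacna1i 62.4%. Among genes that fell with the myelin markers, regions ran from 39.6% to 86.4%, both at Cacna1d. A link of this content with the marker slopes was not tested.

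Most of these genes were well expressed: 23 of 36 had a mean of at least 10 FPKM and 7 lay under 5. Among HCN genes, Hcn2 was the main one with a mean of 118 FPKM, with Hcn3 at 12.1 and Hcn4 at 4.70. Hcn2 made up 81.6% ± 4.50 of the summed FPKM of the HCN genes (SD, n = 59). In every library Hcn2 held at least 68.9% of that sum, so that it ranked first in all 59.

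Among sodium channel alpha genes, Scn1a had the highest mean level at 46.8 FPKM, followed by Scn8a at 25.6, the alpha subunit typical of axon initial segments and nodes. Scn2a1, outside the rule, made up 24.7% of the alpha sum beside 40.6% for Scn1a and 22.2% for Scn8a. Scn3a followed at 8.48 FPKM, Scn9a at 2.34 and Scn7a, an atypical channel linked to sodium sensing, at 1.42. Among the beta genes Scn2b had a mean of 73.6 FPKM, Scn4b of 58.7 and Scn3b of 42.4. Scn4b, whose protein is known for resurgent sodium current in fast-firing neurons, was the most variable gene of the set. It ran from 11.1 to 120.02 FPKM, a 10.8-fold range, and its spread within groups (SD 0.57 on the log2 scale) exceeded that of 98.4% of tested genes.

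Calcium channel pore genes were at moderate levels and close together. Cacna1a, the P/Q-type pore, had a mean of 16.4 FPKM, Cacna1g of 12.2, Cacna1b, the N-type pore, of 11.1, Cacna1i of 8.84, Cacna1e, the R-type pore, of 7.34 and Cacna1h of 5.82. Cacna1g, Cacna1h and Cacna1i encode the T-type pores. The L-type pores that serve pacemaking were the lowest, Cacna1c at 3.95 and Cacna1d at 3.40 FPKM. Their shares of the alpha1 sum were 5.72% ± 0.578 and 4.94% ± 0.633, against 23.9% ± 3.43 for Cacna1a (SD, n = 59 each). The shares of Cacna1g and Cacna1b were 17.5% ± 1.83 and 16.1% ± 1.69 over all libraries, but their order differed between sets of libraries. In the 35 acute, chronic and conditioning libraries they were 18.3% ± 1.63 and 15.1% ± 1.11 (SD). In the 24 self-administration libraries they were 16.5% ± 1.59 and 17.5% ± 1.33 (SD).

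Of the alpha2delta genes, whose proteins bind gabapentin in the case of Cacna2d1 and Cacna2d2, those had means of 26.4 and 26.5 FPKM, Cacna2d3 of 17.2 and Cacna2d4 of 0.569. Cacna2d4 was the gene just inside the minimum mean, and Cacng1, the muscle gamma subunit, was just outside at 0.123. The other genes outside were Scn4a, Scn10a, Scn11a, Cacna1s, Cacna1f and Cacng6, with means from 0.00462 to 0.109 FPKM. Beta subunit genes lay close together, with Cacnb3 at 28.3, Cacnb1 at 21.9, Cacnb4 at 21.4 and Cacnb2 at 16.6 FPKM. Gamma subunit genes were led by Cacng7 at 119.9 FPKM, with Cacng4 at 22.5, Cacng2 (stargazin) at 21.8, Cacng8 at 18.2, Cacng3 at 17.4 and Cacng5 at 6.32. The median spread within groups was 0.21 on the log2 scale for the 36 genes and 0.14 for the 14263 genes tested.

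Several of the genes are neighbours in the genome (GRCm38, GENCODE M21 annotation). Scn3a (chr2:65457118-65567627), Scn1a (chr2:66270778-66440840), Scn9a (chr2:66480080-66634962) and Scn7a (chr2:66673425-66784914) lie near each other on the minus strand. Scn2b (chr9:45117782-45130070) and Scn4b (chr9:45138395-45154152) stand side by side on the plus strand, and Scn3b (chr9:40269217-40291618) is on the same chromosome. Hcn2 lies at chr10:79716634-79736108 and Hcn3 at chr3:89146074-89160196. Values are for whole protein-coding genes, and exons were not analysed singly. The neighbours Scn4b and Scn2b varied by different amounts over libraries, 10.8-fold and 1.64-fold.

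**Figure D1:**
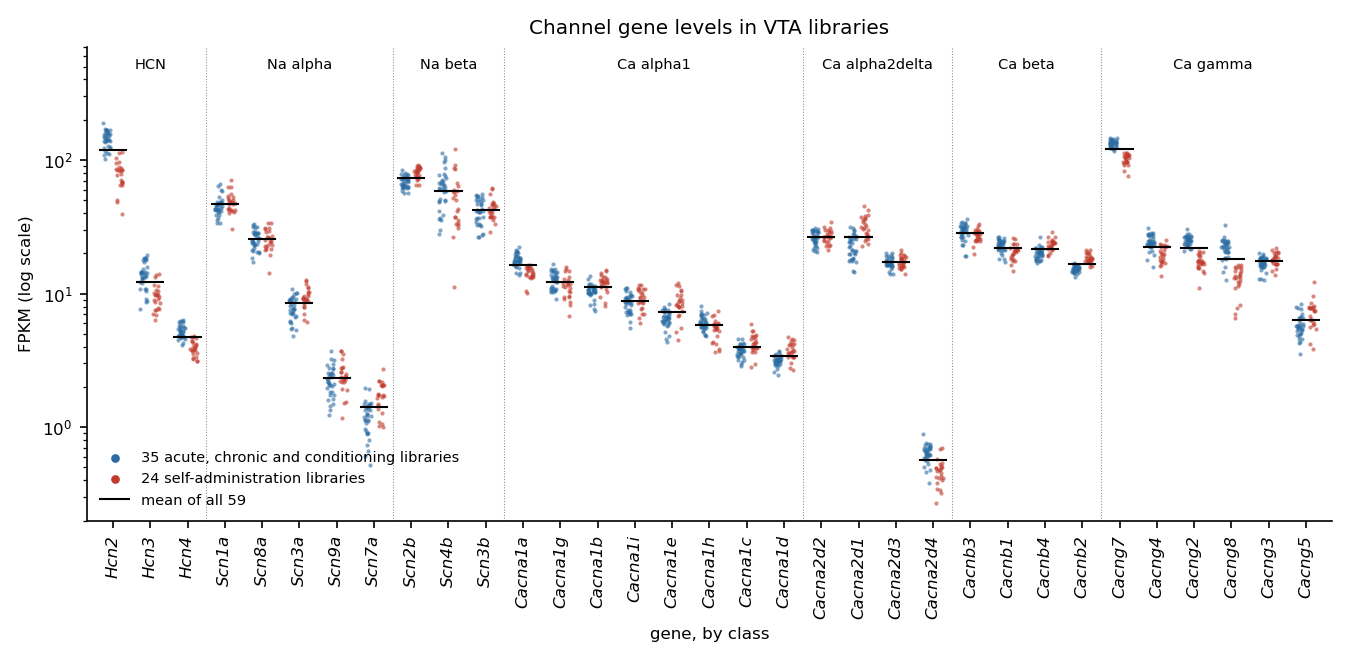
Level in FPKM (log axis) of 33 of the 36 genes, ordered by class and mean, with 1 point per library (35 acute, chronic and conditioning libraries in blue, 24 self-administration libraries in red) and a black bar at the mean of all 59. Hcn2 and Cacng7 lead their classes, with means of 118 and 119.9 FPKM, and the points of Scn4b spread from 11.1 to 120.02.

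Acute cocaine was first compared with acute saline, which asks what a short exposure does to these genes. No gene of the set passed the test, and none of the 14263 genes did (0% called). The lowest estimates were those of Scn3b (-0.27 ± 0.15), a sodium channel beta subunit, Cacna1e, the R-type pore, and Scn3a (-0.25 ± 0.11), a sodium channel alpha subunit. The difference was below 0 for 30 of 36 genes, with a median of -0.088 on the log2(FPKM + 1) scale, beside 50.4% of all genes below 0. At an unadjusted p under 0.05 there were 6 of 36 genes, all lower in cocaine, against 3.91% of all genes in either direction and 1.73% lower.

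Cacna1e was at 4.84, 5.79, 5.98, 6.49 and 6.70 FPKM in the acute cocaine libraries and at a lowest, median and highest value of 6.38, 7.22 and 8.31 in saline. All 5 cocaine libraries lay below the saline median, and the ranges overlapped. The difference was -0.26 ± 0.08 (log2, standard error) with an adjusted p of 0.985. Cacng3, an AMPA receptor partner, was at 14.1, 16.05, 16.6, 16.7 and 18.4 FPKM in cocaine and at 16.8, 18.0 and 20.2 in saline, a difference of -0.15 ± 0.06. Cacna1c, an L-type pore, was at 3.33, 3.51, 3.57, 3.70 and 4.17 FPKM in cocaine and at 3.73, 4.08 and 4.55 in saline, a difference of -0.13 ± 0.06. These ranges overlapped too. Cacna1d, the other L-type pore, differed by -0.10 ± 0.05, Scn3a and Cacna2d3 made up the 6, and no gene of the set had groups that did not overlap (0.316% of all tested genes had).

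The HCN genes showed no common direction: the differences were 0.097 ± 0.12 for Hcn2, -0.11 ± 0.18 for Hcn3 and -0.026 ± 0.09 for Hcn4. Scn1a (-0.028 ± 0.14), Scn8a (-0.011 ± 0.12) and Cacna1g (-0.11 ± 0.07) did not pass either, and Scn2a1 differed by -0.17 ± 0.08. The level of the 8 dopamine neuron markers, as a mean log2(FPKM + 1), was 5.74 ± 0.694 in cocaine (SD, n = 5) and 6.13 ± 0.261 in saline (SD, n = 6). With dopamine and myelin marker levels as covariates the median difference was -0.059 with 29 genes below 0, 1 gene had an unadjusted p under 0.05, and Cacna1e differed by -0.14 ± 0.06. The estimates of Hcn2 and Hcn3 had the other sign there, -0.092 ± 0.09 and 0.13 ± 0.06. The count at an unadjusted p under 0.05 was 1 without the saline library numbered 4, 2 without that numbered 2, 3 without that numbered 0 or that numbered 5, and 2 without the cocaine library numbered 2. Without the cocaine library numbered 4, which stood apart, there were 5 such genes, the median was -0.044 and Cacna1e differed by -0.20 ± 0.07. Scn1a was then at -0.18 ± 0.08 and Scn8a at -0.13 ± 0.08, so their values near 0 rested on that library. Hcn3 had the other sign there, 0.036 ± 0.15, and no gene of the set passed.

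In chronic cocaine the values furthest from chronic saline by the test were again those of calcium channel pores. No gene passed the test (0% of all genes did), the differences of 22 of 36 genes were below 0, beside 49.5% of all genes, and the median was -0.038. A single gene, Cacna1d, the L-type pore that opens at the more negative voltages, had an unadjusted p under 0.05, against 7.21% of all genes and 3.27% on the lower side. Cacna1d was at a lowest, median and highest value of 2.60, 3.04 and 3.25 FPKM in chronic cocaine and at 3.04, 3.43 and 3.71 in chronic saline. All 6 cocaine libraries lay below the saline median, and the ranges overlapped. The difference was -0.14 ± 0.06, with an adjusted p of 0.664.

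Cacna1c and Cacna1b followed in rank, at -0.13 ± 0.07 and -0.11 ± 0.07. Cacna1c was at 3.07, 3.40 and 3.88 FPKM in cocaine and at 3.38, 3.78 and 4.56 in saline. Cacna1b was at 8.33, 10.7 and 11.2 FPKM in cocaine and at 10.1, 10.9 and 12.8 in saline. For each of them 5 of 6 cocaine libraries lay below the saline median. Hcn2 (0.048 ± 0.11), Hcn3 (0.061 ± 0.15) and Hcn4 (0.0041 ± 0.07) were within 1 error of 0, as were Scn1a (0.032 ± 0.08) and Scn8a (0.046 ± 0.09). Cacna1g differed by -0.16 ± 0.11 and Scn2a1 by -0.14 ± 0.10, and no gene of the set had groups that did not overlap (0.498% of all genes had). The count at an unadjusted p under 0.05 was 0 without the cocaine library numbered 0 or 3 or the saline library numbered 0 or 1, and 2 without the cocaine library numbered 2 or 4 or the saline library numbered 3.

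In the conditioning paradigm the sodium channel genes had values on both sides of 0. No gene passed the test (0% of all genes did). At an unadjusted p under 0.05 there were 6 of 36 genes, against 8.15% of all genes, 3.76% higher and 4.39% lower: Scn4b, Hcn2 and Scn8a were higher in cocaine, and Scn7a, Cacna2d1 and Cacng5 lower. The difference was below 0 for 25 genes, beside 51% of all genes, and the median was -0.061.

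Scn7a was at a lowest, median and highest value of 0.606, 0.924 and 1.14 FPKM in cocaine and at 1.11, 1.22 and 1.93 in saline, with all 6 cocaine libraries below the saline median. Its difference was -0.30 ± 0.09 (adjusted p 0.594), at levels where the added 1 FPKM damps the fold. Cacna2d1 was at 17.5, 19.1 and 20.8 FPKM in cocaine and at 19.7, 22.5 and 29.7 in saline, a difference of -0.27 ± 0.08. Cacng5, a partner of AMPA receptors, was at 3.54, 4.72 and 5.68 FPKM in cocaine and at 5.01, 5.58 and 6.70 in saline, a difference of -0.22 ± 0.09. In none of the 3 genes were the groups separate, and this held for all 36 (0.407% of all genes were separate).

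Scn4b was at 62.2, 72.4 and 113 FPKM in cocaine and at 27.9, 54.1 and 75.8 in saline, which is 0.65 ± 0.26 on the log2 scale. Hcn2 was at 146, 157 and 169 FPKM in cocaine and at 108, 140.3 and 164 in saline (0.22 ± 0.09), and Scn8a at 24.7, 29.7 and 31.7 against 17.2, 24.6 and 28.8 (0.27 ± 0.12). For each of these genes all 6 cocaine libraries lay above the saline median, and the ranges overlapped. Scn1a had 0.23 ± 0.12 in the same direction. Hcn3 (-0.097 ± 0.20), Hcn4 (-0.0087 ± 0.07), Cacna1c (-0.12 ± 0.07), Cacna1d (-0.031 ± 0.06) and Cacna1g (-0.16 ± 0.10) did not pass, and Scn2a1 differed by -0.19 ± 0.07. The level of the 6 oligodendrocyte markers was 9.37 ± 0.0995 in cocaine and 9.25 ± 0.141 in saline (SD, n = 6 each). With marker levels as covariates 3 genes had an unadjusted p under 0.05, Hcn2 differed by 0.15 ± 0.10, Scn8a by 0.19 ± 0.10, Scn7a by -0.26 ± 0.11 and Cacna2d1 by -0.17 ± 0.06. There were 3 such genes without the cocaine library numbered 3 or 4 or the saline library numbered 0 or 2, and 9 without the cocaine library numbered 0.

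In self-administration, with the most libraries, no gene of the set had even an unadjusted p under 0.05, against 3.53% of all genes, and none passed the test (0% of all genes did). The differences of 21 genes were below 0, beside 50.6% of all genes, with a median of -0.037. The 3 genes with the smallest p were Cacng5, Cacng4 and Scn3b. Cacng5 was at a lowest, median and highest value of 3.87, 6.44 and 9.66 FPKM in cocaine and at 5.58, 7.78 and 12.2 in saline, a difference of -0.23 ± 0.12 (adjusted p 1). Cacng4 was at 13.7, 19.2 and 22.9 FPKM in cocaine and at 17.0, 22.5 and 25.2 in saline, a difference of -0.13 ± 0.08, with 14 of 15 cocaine libraries below the saline median. Scn3b was at 29.0, 40.1 and 55.2 FPKM in cocaine and at 37.1, 43.5 and 61.7 in saline, a difference of -0.14 ± 0.10.

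Scn4b covered the widest range here, from 11.1 to 120.02 FPKM in cocaine and from 30.8 to 67.6 in saline, and its difference of 0.30 ± 0.28 was about as large as its error. Hcn2 differed by 0.15 ± 0.15, Hcn3 by 0.026 ± 0.11 and Hcn4 by -0.039 ± 0.07. Scn1a (0.087 ± 0.10), Scn8a (0.12 ± 0.11), Cacna1c (-0.036 ± 0.08), Cacna1d (-0.088 ± 0.07), Cacna1g (-0.074 ± 0.11) and Scn2a1 (-0.11 ± 0.10) were within 2 errors of 0. The hypothalamus markers Pmch and Hcrt were at a mean level of 1.44 ± 1.13 in cocaine (SD, n = 15) and 3.30 ± 1.79 in saline (SD, n = 9). Their part in these differences was not tested. No gene of the set had groups that did not overlap, and 0% of all genes had. Without the cocaine library numbered 6 there were 2 genes at an unadjusted p under 0.05, without the saline library numbered 2 there were 3, and without any of 6 other libraries there was 1.

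**Figure D2:**
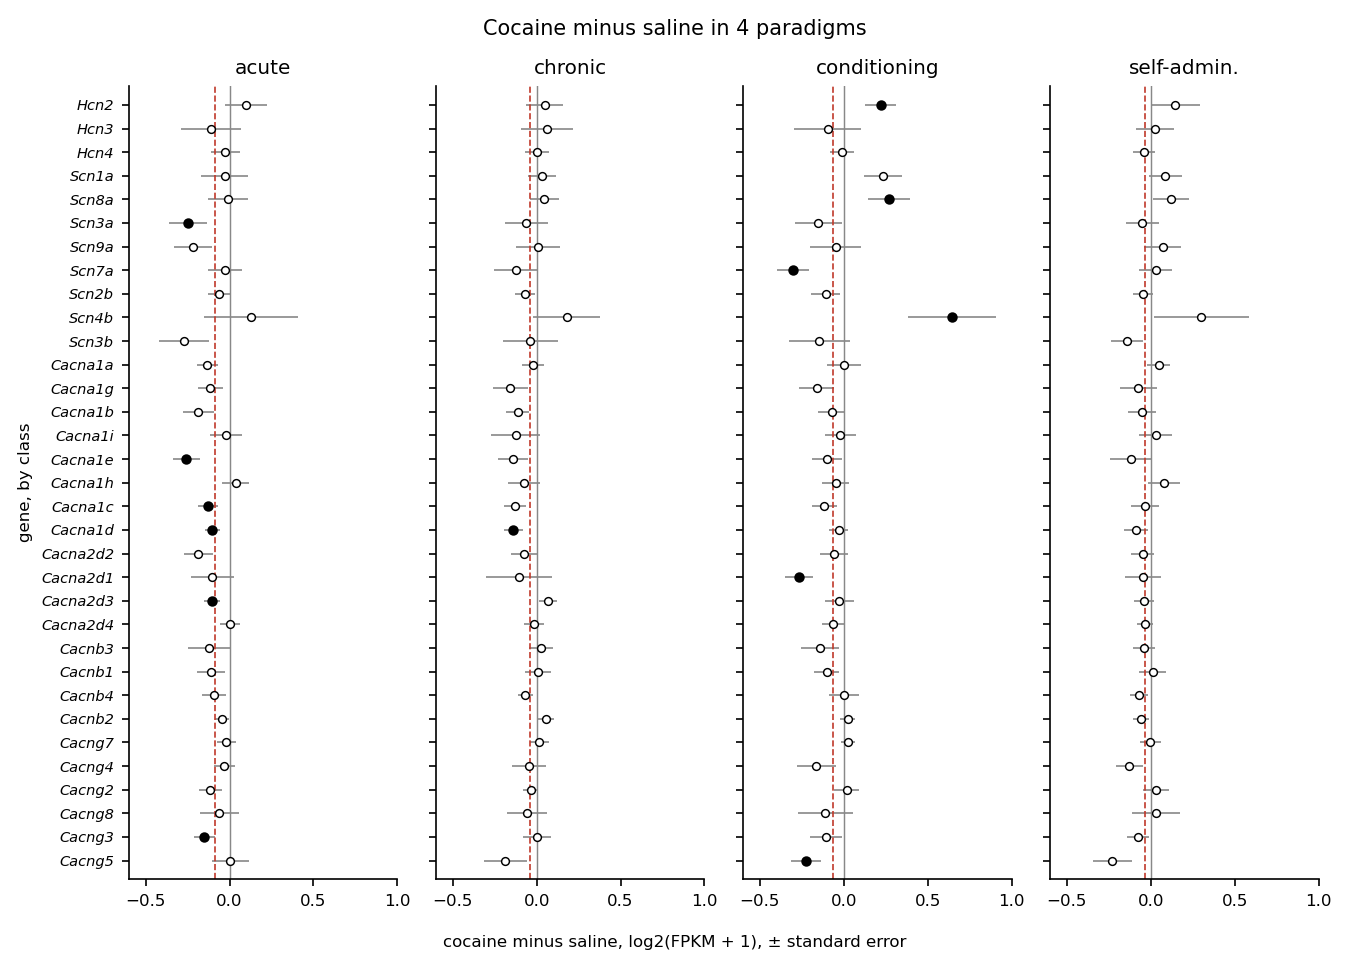
Difference of cocaine from saline in log2(FPKM + 1) (points, with bars of 1 standard error) for 33 of the 36 genes in each of 4 paradigms. Filled points have an unadjusted p under 0.05 (6, 1, 6 and 0 genes), none passes adjustment over 14263 genes, and the dashed red line is the median of the 36, between -0.088 and -0.037.

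The average cocaine effect over the 4 paradigms asks for a small shift common to all. No gene of the set passed (1 of 14263 genes did, 0.00701%). At an unadjusted p under 0.05 there were 13 of 36 genes, 11 lower and 2 higher, against 12.6% of all genes, 6.34% lower and 6.24% higher. The lower genes included 5 calcium channel pores (Cacna1b, Cacna1c, Cacna1d, Cacna1e and Cacna1g), 3 gamma subunits (Cacng3, Cacng4 and Cacng5), Cacna2d2 and Scn3b, and Scn4b (0.31 ± 0.15) was among the higher ones. Sizes were small, with a median of -0.036 over the 36 genes and 28 of them below 0, beside 51.2% of all genes.

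Cacng5 had the smallest p, with -0.18 ± 0.06 and an adjusted p of 0.269. Its difference was 0.0041 ± 0.11 in acute and between -0.23 and -0.19 in the other paradigms. Cacna1d differed by -0.089 ± 0.03, Cacna1e by -0.15 ± 0.06 and Cacna1c by -0.089 ± 0.04. For each of these 3 genes the difference was below 0 in all 4 paradigms. They were picked by the average over the same paradigms, so the shared sign is no separate support. Leaving out 1 library took Cacna1d in conditioning as high as 0.011 and Cacna1c in self-administration as high as 0.011. Scn2a1 differed by -0.15 ± 0.05 (adjusted p 0.256). With marker levels as covariates 3 genes had an unadjusted p under 0.05 and 26 lay below 0. Cacna1d was then at -0.053 ± 0.03 and Cacna1e at -0.071 ± 0.04. The count was between 5 and 8 without any of 17 single libraries, among them 6 without the acute cocaine library numbered 4, and at most 16 without any other, while it was 11 without the self-administration cocaine library numbered 6. Without the acute, the chronic, the conditioning or the self-administration paradigm it was 6, 6, 4 and 11. These counts rest on unadjusted p-values and name no gene as changed.

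Differences between the cocaine effects were tested directly for the 6 pairs of paradigms. No gene of the set passed in any pair (0% of all genes did). The smallest unadjusted p was that of Scn7a, whose cocaine effect was 0.33 ± 0.16 higher in self-administration than in conditioning (adjusted p 1), where 3.05% of all genes had an unadjusted p under 0.05. The background for the other pairs was 1.3% for chronic against acute, 1.58% for conditioning against acute, 1.79% for self-administration against acute, 2.28% for conditioning against chronic and 2.33% for self-administration against chronic. No other gene of the 36 had an unadjusted p under 0.05 in any of the 6 pairs. Scn7a also ranked first for conditioning against acute, Cacna2d3 for chronic against acute, Cacna1a for self-administration against acute, Scn8a for conditioning against chronic and Cacnb2 for self-administration against chronic.

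Partner genes were counted in the same fits. Of 37 listed partners (calmodulins and FGF homologous factors, ankyrins and other anchoring proteins, small GTPases of the Rem and Gem family that bind calcium channel beta subunits, Nalcn and its subunits, and others), 36 were in the table and 32 tested. None passed in any cocaine comparison. At an unadjusted p under 0.05 there were 0 in acute, 3 in chronic, 5 in conditioning and 1 in self-administration. The average effect had 6. The shares of all genes were 3.91%, 7.21%, 8.15%, 3.53% and 12.6% in the same order. Rrad, which inhibits calcium channels, differed by -0.68 ± 0.19 in conditioning (adjusted p 0.594), and Gem, of the same family, by 0.41 ± 0.14 there and 0.30 ± 0.11 in chronic. Fgf11, a sodium channel binding factor, differed by 0.31 ± 0.09 in the average effect (adjusted p 0.254).

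Saline groups were compared between paradigms, with no cocaine in the fit. In self-administration saline against the mean of the other 3 saline groups, several HCN and gamma subunit genes were lower, among them Hcn2, Hcn3 and Hcn4, Cacng2, Cacng4, Cacng7 and Cacng8. Cacna2d1, Cacng5, Cacna1e and Cacnb2 were among the higher genes. In all, 24 of 36 genes passed, 11 higher and 13 lower (66.7%), and 57.8% of all 14263 genes passed too (30.8% higher and 27% lower), so the share is near the background. Handling and any batch go with the paradigm and cannot be told apart from it.

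Hcn2 was at a lowest, median and highest value of 48.3, 71.3 and 95.0 FPKM in self-administration saline, against 102, 139 and 158 in acute, 125, 145 and 157 in chronic and 108, 140.3 and 164 in conditioning saline. All self-administration saline libraries lay below all others. The difference was -0.92 ± 0.09 with an adjusted p of 1.78e-09. Hcn2 made up 76.8% ± 3.39 of the HCN sum there (SD, n = 9) and 83.8% ± 1.93 in the other saline libraries (SD, n = 18). Hcn3 differed by -0.53 ± 0.11, with 6.94, 9.13 and 13.7 FPKM against medians of 13.9, 14.4 and 14.1, and Hcn4 by -0.32 ± 0.05.

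Cacng8, Cacng2 and Cacng7 were also separate from the other saline libraries. Cacng8 was at 6.98, 13.0 and 15.9 FPKM in self-administration saline and between 18.5 and 32.6 in the others (-0.80 ± 0.09). Cacng2 was at 14.8, 16.9 and 19.0 FPKM and between 21.4 and 27.8 in the others (-0.56 ± 0.04, adjusted p 3.13e-12). Cacng7 was at 90.98, 97.8 and 112.5 FPKM and between 120.1 and 143.5 in the others (-0.38 ± 0.04). Cacnb2 was the only gene of the set that was higher without overlap, at 16.7, 18.6 and 21.4 FPKM against 14.0 to 16.3 in the others (0.29 ± 0.04). With Hcn2 these made 5 genes without overlap, and 8.05% of all tested genes had none.

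Among the higher genes, Cacna2d1 was at 22.5, 33.1 and 38.8 FPKM in self-administration saline, against medians of 26.5, 23.9 and 22.5 (0.42 ± 0.11). Cacng5 differed by 0.32 ± 0.08 and Cacna1e by 0.32 ± 0.09, and their ranges overlapped those of the other saline libraries. With marker levels as covariates 12 genes passed, beside 5076 of all genes. Hcn2 (-0.60 ± 0.10), Cacng8 (-0.79 ± 0.13), Cacng2 (-0.54 ± 0.05), Hcn3 (-0.37 ± 0.13), Cacng7 (-0.34 ± 0.05) and Cacnb2 (0.24 ± 0.05) then still passed. Cacna2d1 (0.02 ± 0.10), Cacng5 (0.26 ± 0.13) and Cacna1e (-0.01 ± 0.11) did not. The level of 6 oligodendrocyte markers was 8.65 ± 0.268 in self-administration saline (SD, n = 9), and between 9.06 and 9.25 on average in the other saline groups.

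The difference also went with the base composition of the transcripts. Over the 36 genes the correlation between GC content of the longest transcript and the difference was -0.69, and over 13738 genes with a value it was -0.37. The correlation of the difference with the log2 length of that transcript was 0.52 over the 36 genes and 0.24 over the 13738. Genes share libraries, so this is a description with no test. The called lower genes had a median GC content of 58.4% and the called higher ones of 48.3%. Over all genes, cut into 20 bins of GC content, the median difference was 0.10 in the bin of lowest GC and -0.47 in that of highest GC. Centred on genes of like GC content, an alternative chosen after seeing the data, Hcn2 was at -0.45, Cacng8 at -0.33, Cacng7 at -0.25 and Cacng2 at -0.60. Of the 24 called genes 20 kept their sign, and the 4 that changed it included Cacna1h, Cacnb1 and Cacnb3. Among partner genes 16 of 32 passed, 8 in each direction, beside 57.8% of all genes (30.8% higher and 27% lower). Those named here were all lower, and their values are not centred on GC content. Sptbn4, a spectrin of axon initial segments, was at -0.98 ± 0.06. Fam155a, a Nalcn subunit, was at -0.42 ± 0.04 and Calm3, a calmodulin gene, at -0.37 ± 0.04.

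**Figure D3:**
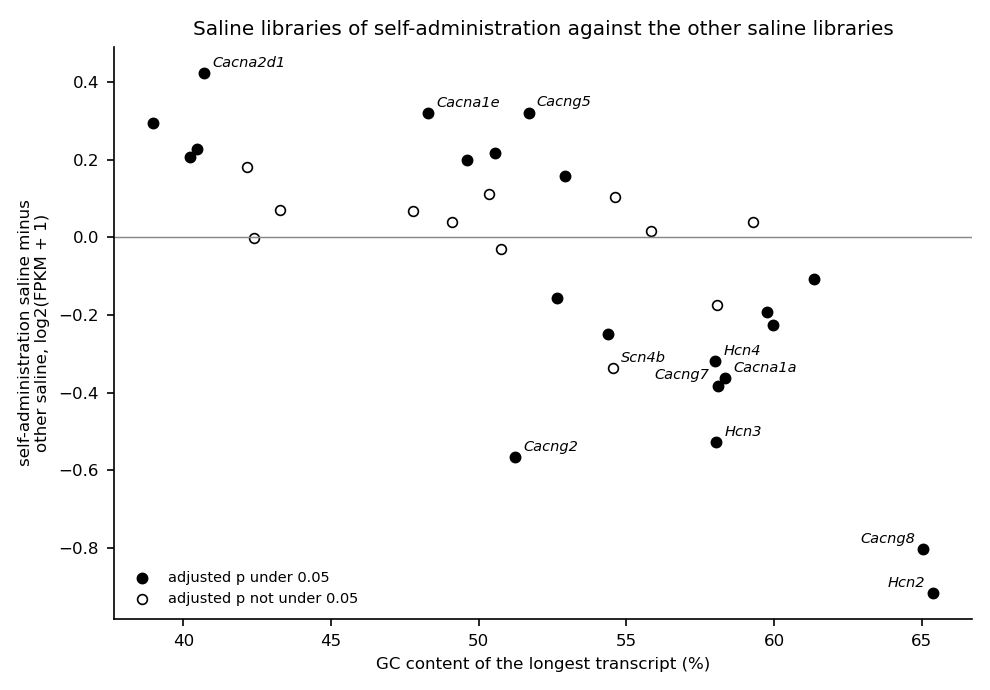
Self-administration saline minus the mean of the other saline groups (vertical axis, log2(FPKM + 1)) against the GC content of the longest transcript in percent, 1 point for each of 33 genes, filled where the adjusted p is under 0.05. Hcn2 and Cacng8, the members of highest GC content, have the lowest values, -0.92 and -0.80, and the correlation over the 36 genes is -0.69.

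The other saline groups differed in no gene of the set by the test. Conditioning against the home-cage saline groups gave no gene of the set (4 of 14263 genes passed, 0.028%), and chronic against acute saline gave none (0% of all genes). At an unadjusted p under 0.05 there was 1 gene in the first, Cacna1b at -0.17 ± 0.08, against 4.78% of all genes (2.01% lower), and 2 in the second, against 2.69% (1.37% lower). Those were Cacnb3 (-0.15 ± 0.06) and Cacng3 (-0.14 ± 0.06). Cacng2 (-0.085 ± 0.05) and Cacna1a (-0.11 ± 0.07) followed in the first contrast and Scn2b (-0.15 ± 0.08) in the second. Cacnb3 was at a lowest, median and highest value of 26.3, 28.9 and 30.7 FPKM in chronic saline and at 29.9, 32.1 and 33.8 in acute saline.

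Libraries differed in their level of dopamine neuron markers, and several channel genes went with it. The dopamine level of a library was the mean log2(FPKM + 1) of Th, Slc6a3, Slc18a2 and Ddc, and the myelin level that of 4 myelin genes, Mbp, Mobp and Mog among them. Both were centred on the group mean and entered 1 fit of all 59 libraries, with slopes of their own for the 35 acute, chronic and conditioning libraries and for the 24 self-administration libraries. The errors and p-values of both sets of slopes thus share 1 estimate of the spread. A slope is the change of a gene per unit of marker level, both on the log2 scale. The dopamine level ran from 6.59 (acute cocaine library numbered 4) to 8.84 in the 35 libraries and from 6.70 to 8.70 in self-administration.

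In the 35 libraries 16 of 36 genes passed the test for the dopamine slope, 11 rising and 5 falling, against 15.4% of all genes, 8.22% rising and 7.22% falling. The rising genes included Scn3b, the sodium channel beta subunit, Scn3a and Scn9a, the HCN genes Hcn3 and Hcn4, and Cacna2d2 and Cacnb3. The falling ones included Cacna1i, a T-type pore, Cacna2d1 and Scn1a. Hcn2 did not pass.

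Scn3b rose by 0.42 ± 0.03 per unit (adjusted p 2.48e-17). In the 4 libraries lowest in dopamine level for their group Scn3b was between 26.6 and 32.5 FPKM, and in the 4 highest between 50.3 and 55.7, with no overlap. Hcn3 rose by 0.44 ± 0.06 (adjusted p 5.68e-08), from between 8.58 and 10.8 FPKM to between 17.7 and 18.6. Scn9a rose by 0.32 ± 0.04, from between 1.35 and 1.64 FPKM to between 2.19 and 3.75. Scn3a rose by 0.31 ± 0.03, from between 5.35 and 6.04 to between 8.79 and 10.8 FPKM.

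Cacna1i fell by 0.28 ± 0.04, from between 8.68 and 11.0 to between 5.51 and 7.54 FPKM. Cacna2d1 fell by 0.24 ± 0.04, with 18.5 to 28.0 FPKM in the lowest and 14.5 to 21.2 in the highest libraries. For Cacna2d1 the ranges overlapped, and with the dopamine level alone in the fit its slope was -0.18 with an adjusted p of 0.0548. Smaller called slopes were 0.20 for Cacnb3 and Cacna2d2, 0.16 for Hcn4, 0.15 for Cacna1e, 0.13 for Cacna1a, 0.11 for Cacng3, 0.10 for Cacna2d3 and -0.18 for Scn1a. Leaving out any single library kept the named slopes of Scn3b, Hcn3, Scn9a, Cacna1i and Cacna2d1 past the threshold, and the count of genes lay between 14 and 19. Without the acute cocaine library numbered 4, which had the lowest level, the slopes of Scn3b and Hcn3 were 0.41 ± 0.03 and 0.42 ± 0.06.

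The self-administration libraries gave 5 of 36 genes for the dopamine slope, 3 rising and 2 falling, against 7.76% of all genes, 4.19% rising and 3.57% falling. They included Scn3b (0.32 ± 0.04, adjusted p 1.43e-08), Scn9a (0.28 ± 0.05), Scn3a (0.21 ± 0.04) and Cacna1i (-0.31 ± 0.05), each with the sign it had in the 35 libraries. Scn3b was between 29.0 and 42.9 FPKM in the 4 lowest and between 45.2 and 60.3 in the 4 highest libraries. Cacna1i was between 10.8 and 11.7 in the lowest and between 6.07 and 8.95 in the highest. Without the 2 libraries farthest in marker level, Scn3a was at 0.14 with an adjusted p of 0.0750. The difference of slopes between the 2 sets of libraries passed for no gene of the 36 (1 of 14263 genes passed), and 4 had an unadjusted p under 0.05, against 11.6% of all genes.

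**Figure D4:**
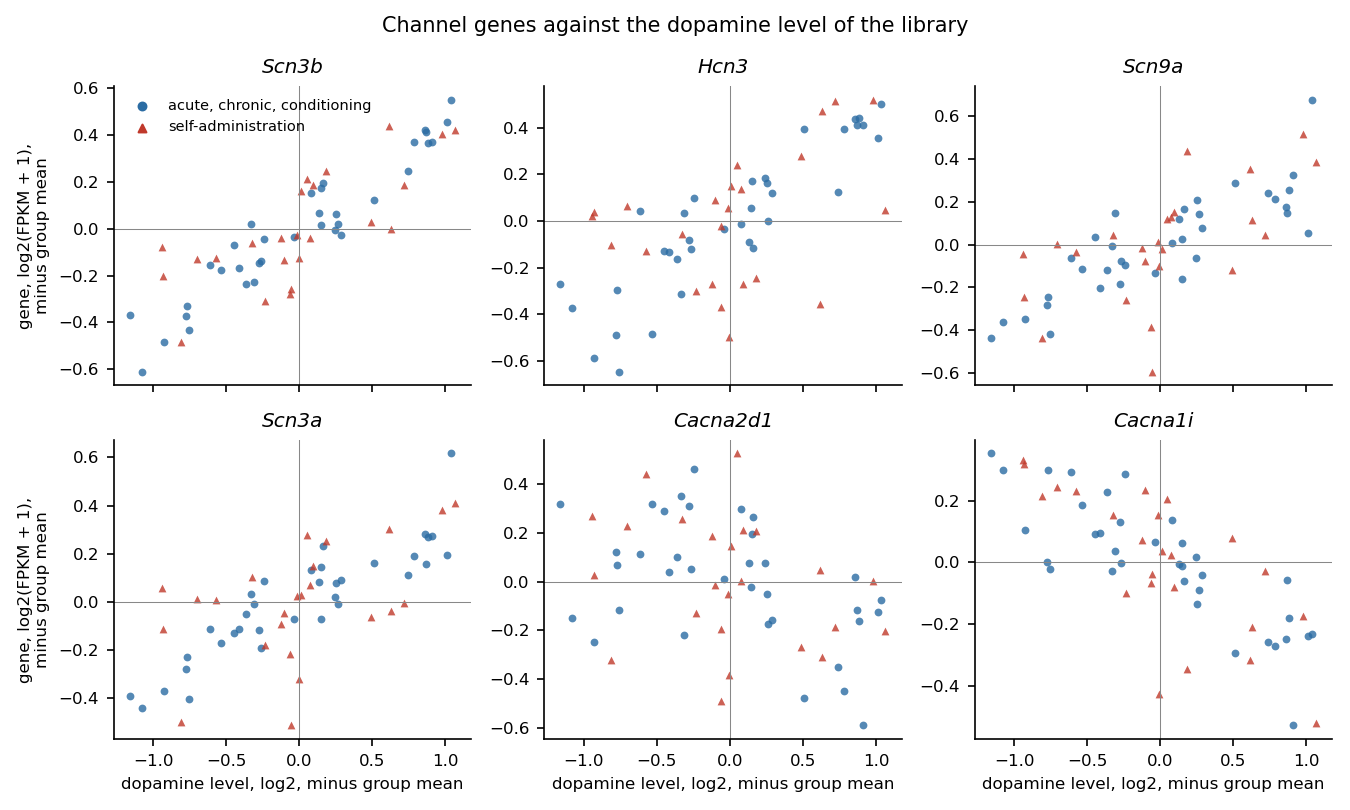
Level of 6 genes (vertical axis, log2(FPKM + 1) minus the group mean) against the dopamine level of the library minus its group mean, 1 point per library, circles for acute, chronic and conditioning and triangles for self-administration. Scn3b, Hcn3, Scn9a and Scn3a go up with the dopamine level and Cacna2d1 and Cacna1i go down, with fitted slopes in the circles from -0.28 to 0.44.

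Among partner genes Fgf13, a sodium channel binding factor, had a dopamine slope of 0.50 ± 0.03 in the 35 libraries and 0.44 ± 0.04 in self-administration, and its relative Fgf14 had -0.17 ± 0.03 and -0.11 ± 0.03. In all 12 of 32 tested partners passed in the 35 libraries, beside 15.4% of all genes, and 2 in self-administration, beside 7.76%. For the myelin slope described next, 6 partners passed in the 35 libraries, beside 5.67% of all genes, and 15 in self-administration, beside 26.9%. There Calm3 had 0.54 ± 0.07 and Fgf14 -0.43 ± 0.08. Scn2a1 had -0.81 ± 0.19 in the 35 libraries and -0.76 ± 0.12 in self-administration, and Nfasc, a cell adhesion protein of nodes and axon initial segments, had 0.74 ± 0.18 in the 35.

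The myelin level went with other genes of the set, Scn4b, Hcn2 and Cacna2d1 among them. In self-administration 15 of 36 genes passed the test for the myelin slope, 6 rising and 9 falling, against 26.9% of all genes, 14.2% rising and 12.7% falling. Scn4b rose by 1.98 ± 0.36 per unit (adjusted p 6.2e-05) and Hcn2 by 0.97 ± 0.19, with Scn1a, Cacng2 and Cacng7 also rising. Cacna1e fell by 0.89 ± 0.15, Cacna2d1 by 0.84 ± 0.14 and Scn3a by 0.72 ± 0.10, and Scn9a, Cacna1b, Cacna1c, Cacna1d, Scn7a and Scn3b fell as well. Both L-type pores were thus among the falling genes, at -0.56 ± 0.11 for Cacna1c and -0.52 ± 0.09 for Cacna1d.

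Scn4b was between 11.1 and 58.7 FPKM in the 4 self-administration libraries lowest in myelin level for their group and between 60.1 and 120.02 in the 4 highest. Hcn2 was between 39.3 and 84.8 FPKM in the lowest and between 83.5 and 115 in the highest, so its ranges met. Cacna2d1 was between 27.9 and 44.9 in the lowest and between 22.5 and 25.5 in the highest. The extremes of the myelin level were single libraries, at 8.79 (cocaine library numbered 6) and 9.87 (saline library numbered 2). Without that cocaine library the slope of Scn4b was 1.45 ± 0.35 and that of Hcn2 0.73 ± 0.19, and 16 genes passed. Without that saline library they were 2.72 ± 0.45 and 1.27 ± 0.24. The 2 libraries farthest from the median, once centred on group means, were the saline library numbered 2 and the cocaine library numbered 4. Without these 2 Cacna1e was at -0.54 with an adjusted p of 0.0868. The cocaine library numbered 6 stayed in that fit.

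In the 35 other libraries the myelin level spanned less, from 9.30 to 10.1, and 6 of 36 genes passed, 2 rising and 4 falling, against 5.67% of all genes, 3.06% rising and 2.6% falling. Scn4b rose by 1.83 ± 0.56 (adjusted p 0.0400) and Hcn2 by 1.02 ± 0.29 (adjusted p 0.0271). Cacna2d1 fell by 1.30 ± 0.22, Cacna1b by 0.62 ± 0.17 and Scn3b by 0.45 ± 0.14. Hcn2 was between 110.4 and 122 FPKM in the 4 libraries lowest in myelin level and between 140.1 and 158 in the 4 highest, with no overlap. Scn4b overlapped, at 27.9 to 58.8 and 38.6 to 113 FPKM. These calls were close to the threshold: that of Scn4b was lost without any of 18 single libraries (slopes from 1.67 to 1.90, adjusted p up to 0.0887), that of Hcn2 without any of 4 (0.93 to 1.08) and that of Cacna1b without either of 2. Other scalings ended some of them as well: on the TPM scale 3 genes passed, with limma's adjusted p at 0.118 for Scn4b and 0.181 for Cacna1b. After quantile normalization 2 passed, with adjusted p at 0.205 for Scn4b, 0.124 for Hcn2 and 0.243 for Cacna1b. The count of genes was 2 without the acute saline library numbered 4, 3 without that numbered 0, 3 without the chronic cocaine library numbered 5, 3 without the conditioning saline library numbered 3 and 11 without the acute cocaine library numbered 0. The difference of myelin slopes between the 2 sets of libraries passed for no gene of the 36 or of all genes (0%), and 5 had an unadjusted p under 0.05, against 10.9%.

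**Figure D5:**
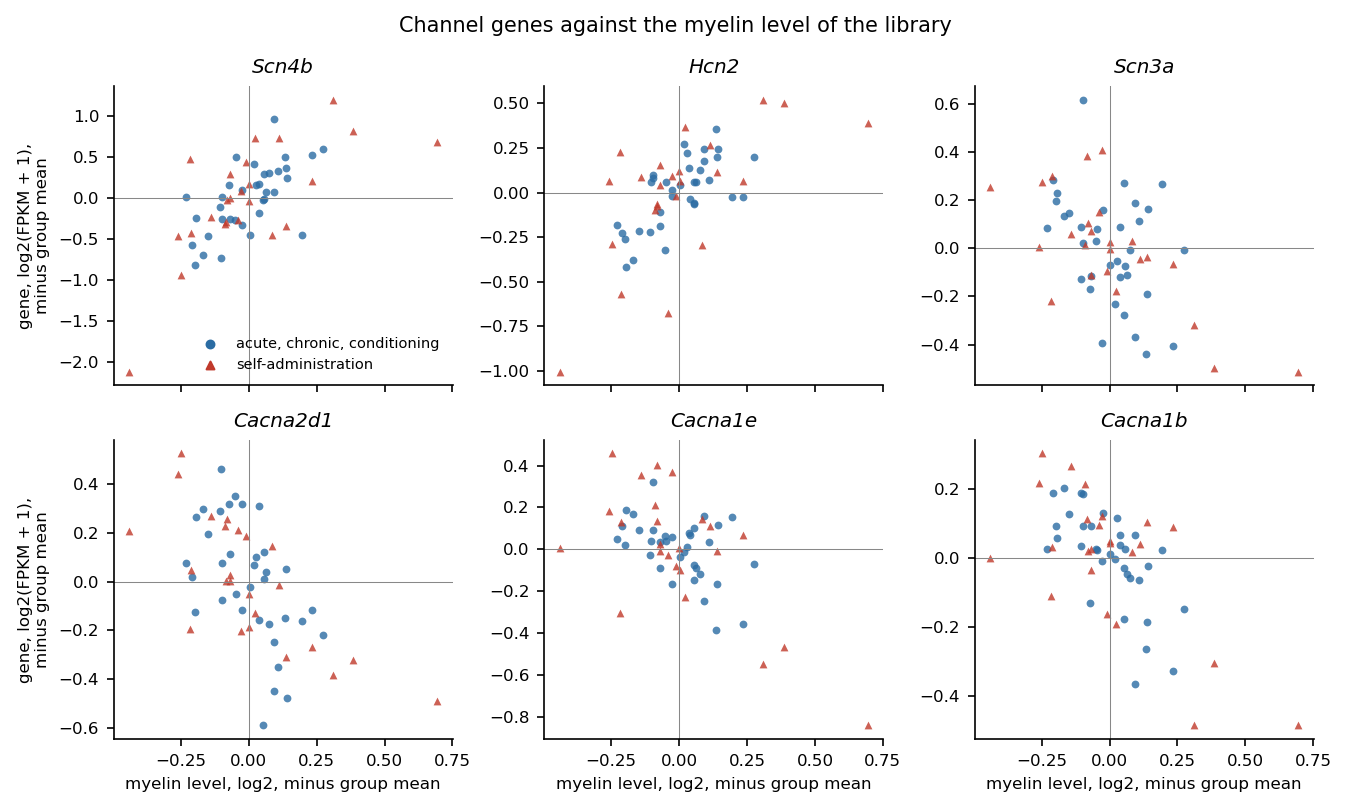
Level of 6 genes (vertical axis, log2(FPKM + 1) minus the group mean) against the myelin level of the library minus its group mean, 1 point per library, circles for acute, chronic and conditioning and triangles for self-administration. Scn4b and Hcn2 go up with the myelin level, with fitted slopes of 1.98 and 0.97 in the triangles, and Scn3a, Cacna2d1, Cacna1e and Cacna1b go down there; the triangle at the far left is the cocaine library numbered 6.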

How the data were processed

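The extraction used an RNeasy kit and the sequencing libraries a TruSeq RNA kit, per the labels' protocols. The authors deposited 1 table of FPKM values for 59 libraries, made with Bowtie and Cuffnorm on mm10, per the submitters' processing notes, with versions, annotation and strand setting not given in the sources used here. With no counts the depth of a library is unknown. All 59 columns were matched to groups by name, and 0 columns had no sample.

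Values were taken as log2(FPKM + 1). A minimum mean of 0.5 FPKM left 14263 genes, which were fitted with limma 3.58.1 in R 4.3.3 (trend and robust moderation), with Benjamini-Hochberg adjustment over all of them and a threshold of 0.05. All p-values are two-sided. Each cocaine comparison used its own 2 groups, the average effect and the differences between effects all 8, and saline contrasts the 4 saline groups. Marker slopes used all 59 libraries with 8 group means. Figures and summaries used Python 3.11.15. The procedure was tested on simulated data. Members and gene lists were chosen with earlier results of these data known. Named by rule were the 3 smallest p-values in each cocaine comparison, 5 in the average effect and 1 in each difference, up to 5 called genes per direction in saline contrasts and 3 in slopes (with none called, the 3 smallest p-values), and 10 channel genes in every cocaine comparison. Alternatives were other pseudocounts (0.1 and 0.5), a minimum mean of 1 or none, a TPM scale, quantile normalization, library weights, marker covariates, centring on GC content and leaving out each library. Counts cover all members and markers, of which some genes are not reported here by name. Coordinates are from GENCODE M21 and upstream sequences from RefSeq, both on GRCm38.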

Additional observations from a re-analysis of the deposited data

Results flagged for a closer look

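In groups of 4 to 10 libraries, a value was singled out where its gap to the next one was large against the range of the group (Dixon's criterion, which chance meets in about 1 in 20 groups). Of 217 groups tested over 31 genes, 12 met it, in 9 libraries. The acute saline library numbered 0 held 3 of them: Hcn3 was highest at 19.5 FPKM (next 14.4), Hcn4 highest at 6.13 (next 5.25) and Cacna1i lowest at 7.02 (next 8.79). The chronic cocaine library numbered 0 held a pair, with Cacnb3 lowest at 23.0 FPKM (next 29.2) and Scn1a highest at 58.99 (next 48.5). Cacng5 was highest at 8.30 FPKM in the chronic cocaine library numbered 4 (next 5.73) and at 12.2 in the self-administration saline library numbered 4 (next 8.50). Cacng2 was highest at 30.6 FPKM in the conditioning cocaine library numbered 3 (next 25.0). In conditioning saline, Cacng4 was highest at 28.6 FPKM in the library numbered 3 (next 24.5), and Scn7a was highest at 1.93 in that numbered 2 (next 1.38). In self-administration saline, Cacna1a was lowest at 10.5 FPKM in the library numbered 2 (next 13.2), and Cacng8 was lowest at 6.98 in that numbered 0 (next 11.8).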

How the results depend on the processing

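Settings were changed 1 at a time. Of the counts of genes past the adjusted threshold, 146 were within 1.5 times the reported count and 5 were not. The 146 include counts of 0 that stayed at 0, those of every cocaine comparison among them. For the myelin slope in the 35 acute, chronic and conditioning libraries, where 6 genes passed, there were 3 on the TPM scale, 2 after quantile normalization and 14 with library weights. The difference of myelin slopes gave 4 with library weights, and the self-administration saline contrast 12 with marker levels as covariates. Leaving out single libraries moved the count for that myelin slope between 2 and 11, and the counts of all other results stayed within 1.5 times. Among single genes 908 values were counted as the same over these settings, 30 moved, 12 lost their call and 3 had the opposite sign. Outside the centring on GC content, the same meant an unchanged sign and call, and sizes could differ. Scn1a in acute cocaine, at -0.22 with marker levels as covariates, was counted as the same. The 3 opposite signs all came with marker levels as covariates: Hcn2 in acute cocaine (-0.092), Hcn3 in acute cocaine (0.13) and Cacna1e in self-administration saline (-0.014, within its error of 0.11 from 0). A sign change was counted as moved where both values lay within 1 standard error of 0 and neither passed.

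Over all genes, library weights moved the count for the average cocaine effect from 1 to 32, that for conditioning saline from 4 to 165, that for the dopamine slope in the 35 libraries from 2203 to 3927, that for their myelin slope from 808 to 2738 and that for the difference of myelin slopes from 0 to 1316. The TPM scale and quantile normalization gave 424 and 181 for that myelin slope. Without the 2 farthest libraries (saline numbered 2 and cocaine numbered 4) the myelin slope in self-administration gave 2076 against 3832. In self-administration saline 5076 against 8243 genes passed with covariates. One fit of all groups gave 1 gene in chronic and 2 in self-administration cocaine, and covariates gave 2 for the average effect. The cause was not tested. No paired analysis was possible because the columns are numbered from 0 and do not say which labelled replicate each one is. With no counts, the depth limit of genes such as Scn7a and Cacna2d4 is unknown.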
